A study of Saccharomyces cerevisiae with 9 samples.

Results

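The comparison described here is that of budding yeast growing in rich medium (YPD) with and without IME4, before any starvation. It rests on 4 of the 9 arrays of the study, 2 of wild type (WT) and 2 of the strain labelled ime4-/- (ime4), both in the SK1 background, which were chosen by their titles. The other 5 arrays, 3 of WT and 2 of ime4, were hybridized with RNA of cells kept for 4 h in sporulation medium (SPO). The carbon source of SPO is potassium acetate. These arrays serve here to show which differences are of another size in that medium, and they enter the shared estimate of spread. Biotinylated cDNA made from total RNA was read on Affymetrix arrays, and the values are deposited probe-set intensities, given below as log2 levels. The study's design text calls the arrays of a group biological replicates. The labels used here name no ploidy, no mating type, no extent of the deletion and no number of independent ime4 clones.

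IME4 encodes the catalytic subunit of the complex that methylates adenosine at the N6 position in messenger RNA. In yeast it is known as an inducer of meiosis, and its own transcription depends on mating type: it is switched on in starved cells that hold both the a1 and the alpha2 protein and is held low in cells of a single mating type. Mating type itself is set by the MAT locus on chromosome III. Cells of type a make a-factor and the receptor for alpha-factor, cells of type alpha make the reverse pair, and a/alpha diploids repress both sets together with the haploid-specific genes, which both haploid types express.

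Of the 9676 probe sets of the table, 5359 were named as Saccharomyces cerevisiae genes (5311 genes) and were tested. The median log2 level of these sets lay between 7.73 and 7.77 on the 4 YPD arrays. Between 96.21% and 96.57% of them lay above background, the level below which 95% of the 1413 probe sets for another species lay on the same array (log2 of 3.17 to 3.269). The replicate arrays correlated across genes with r = 0.998 in each group, and their median absolute log2 difference was 0.0679 in WT and 0.0614 in ime4. Below, a gene rose or fell when its difference between ime4 and WT in YPD had a Benjamini-Hochberg adjusted p under 0.05 in limma, and every difference is on the log2 scale as ime4 minus WT unless a medium is named. RMA, which the submitters' notes name for the deposited values, usually brings all arrays to a common distribution, but its settings are not given. If that step was run, each difference is one against the rest of the transcripts.

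IME4 was low in growing WT cells and at background in ime4. Its level was 5.35 on both WT arrays and 2.29 and 2.43 on the ime4 arrays. The ime4 signal lay under background on both arrays, so the fall was at least 4.47-fold (adjusted p = 1.09e-07, limma). Whether its probes lie within the deleted segment is not stated in the labels. HOS2 and COX13, listed as the genes near IME4 on either side on chromosome VII, showed small differences. The systematic names of IME4 (YGL192W) and HOS2 (YGL194C) are not consecutive, so another gene may lie between them. HOS2, a histone deacetylase subunit, read 6.85 and 6.70 in WT and 6.87 and 6.93 in ime4 (adjusted p = 0.115, and 0.0422 without WT replicate 1). COX13, a subunit of cytochrome c oxidase, read 11.50 and 11.57 in WT and 11.40 and 11.39 in ime4, a difference of -0.14 (adjusted p = 0.046) that missed the threshold when any 1 of the 4 arrays was left out (adjusted p from 0.0514 to 0.212).

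Few of the partners of Ime4 and of the regulators of entry into meiosis passed the threshold in this medium. Of 6 measured genes of the methylation machinery, IME4 alone passed the threshold (16.7%, beside 40.0% of all tested sets). SLZ1, a subunit of the methyltransferase complex, read 3.61 on both WT arrays and 4.12 and 3.72 in ime4 (0.31, SE 0.114, adjusted p = 0.0545, and 0.00329 without ime4 replicate 2). MUM2, the homologue of WTAP in the same complex, read 7.49 and 7.68 in WT against 7.82 and 7.73 (0.19, SE 0.0732, adjusted p = 0.0681, and 0.0191 without WT replicate 2). PHO92, which binds methylated adenosine through its YTH domain, lay at background on all 4 arrays. The differences of KAR4 (0.08) and DYN2 (-0.08) did not pass either.

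Of 13 regulators of meiotic entry, 1 rose and 1 fell (7.69% each), and both calls were lost without some arrays. Of all tested sets 21.3% rose and 18.7% fell. IME1, the master inducer of early meiotic genes, was at 5.0 and 4.98 in WT and at 5.20 and 5.17 in ime4, a rise of 0.19 (adjusted p = 0.0265, from 0.0693 to 0.112 without any 1 array). UME6, which represses early meiotic genes during growth, was at 8.1 and 8.0 in WT and at 7.81 and 7.82 in ime4, a fall of 0.24 (adjusted p = 0.0277, and from 0.089 to 0.15 without WT replicate 1 or either ime4 array). IME2, the kinase that acts after Ime1, read 5.33 and 5.27 in WT and 5.33 and 5.32 in ime4. Among 26 measured genes of meiotic recombination, 1 rose (3.85%) and 4 fell (15.4%). Among 27 middle sporulation genes 2 rose (7.41%) and 3 fell (11.1%), so all these shares lay under those of all sets. REC114, needed for meiotic double-strand breaks, had the largest difference of these lists, with 4.01 and 4.02 in WT and 3.22 and 3.38 in ime4, where 1 of the 2 arrays lay above background. The summed linear intensity of the 26 recombination genes was 668 to 681 in WT and 632 to 647 in ime4, and that of the middle genes was 848 to 850 in WT and 847 to 852 in ime4. On these arrays 14 to 17 of the recombination genes and 19 to 20 of the middle genes lay above background. The number of recombination genes that fell was 2 without WT replicate 1 or ime4 replicate 1 and 6 without WT replicate 2, and the number that rose was 2 without WT replicate 2 and 0 without ime4 replicate 2. The number of middle genes that fell was 1 without WT replicate 2, and 1 rose without WT replicate 2 and 0 without ime4 replicate 1.

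Across all tested probe sets, 2144 passed the threshold, which is 40.0% of the table. Of these, 1141 (21.3%) were higher in ime4 and 1003 (18.7%) were lower, and the median difference over all sets was 0.019. The counts of each gene list below stand beside these shares, and no list was tested against them. Most of the differences were small: 1464 of the called sets differed by at least 0.25, 432 by at least 0.5 and 101 by at least 2-fold. At 2-fold, 52 sets were higher (0.970% of the table) and 49 lower (0.914%). Past 4-fold there were 28 sets and past 8-fold 11, and of those 11 sets 9 belonged to the mating lists. Outside the mating lists, 36 sets were higher and 40 lower by at least 2-fold, IME4 among the latter. The WT and ime4 arrays did not overlap at any of the 1464 called sets that differed by at least 0.25. These sets were first chosen by adjusted p and by size, which leaves little room for overlap, so this count is no separate result.

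The mating-type genes held the largest differences of growing cells, and WT was high for the genes of a cells where ime4 was high for those of alpha cells. All 7 a-specific genes fell, with a median difference of -2.98, and all 5 alpha-specific genes rose, with a median of 5.43. The probe set HMRA1, for the a1 transcript, was at 8.03 and 8.04 in WT and at 1.93 and 1.63 in ime4, below background, a fall of at least 28.7-fold (adjusted p = 6.32e-09). HMLALPHA1, for the alpha1 transcript, was at 4.21 and 4.19 in WT and at 8.91 on both ime4 arrays, 26.1-fold higher in ime4 (adjusted p = 3.17e-10). The name of this last set, and that of HMRA2 (a rise of 1.12), carries an ending for probes shared with other sequences, and MAT and the silent cassettes HML and HMR hold near-identical sequence, so the signal cannot be placed at 1 locus.

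MFA2, which encodes a-factor, was at 10.60 and 10.51 in WT and at background in ime4 (2.96 and 2.93), at least 165-fold lower (adjusted p = 5.13e-13). STE2, the receptor for alpha-factor, was at 9.98 and 9.92 in WT and at 3.23 and 2.93 in ime4. AGA2, the adhesion subunit of a-agglutinin, was at 8.72 and 8.65 in WT and at 3.50 and 2.94 in ime4. For both, 1 of the 2 ime4 arrays lay above background. The differences of BAR1 (the protease that degrades alpha-factor), STE6 (the a-factor exporter), MFA1 (the other a-factor gene) and ASG7 were -2.98, -2.73, -2.34 and -1.64. In the reverse direction, STE3, the receptor for a-factor, was at 4.16 and 3.92 in WT and at 9.95 and 9.85 in ime4, a rise of 5.86. The alpha-factor gene MF(ALPHA)1 went from 6.01 and 5.93 in WT to 11.53 and 11.61 in ime4, a rise of 5.59. AFB1, which encodes a secreted blocker of a-factor, rose by 5.43, SAG1 (alpha-agglutinin) by 4.2 and MF(ALPHA)2 (the other alpha-factor gene) by 2.20.

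**Figure D1:**
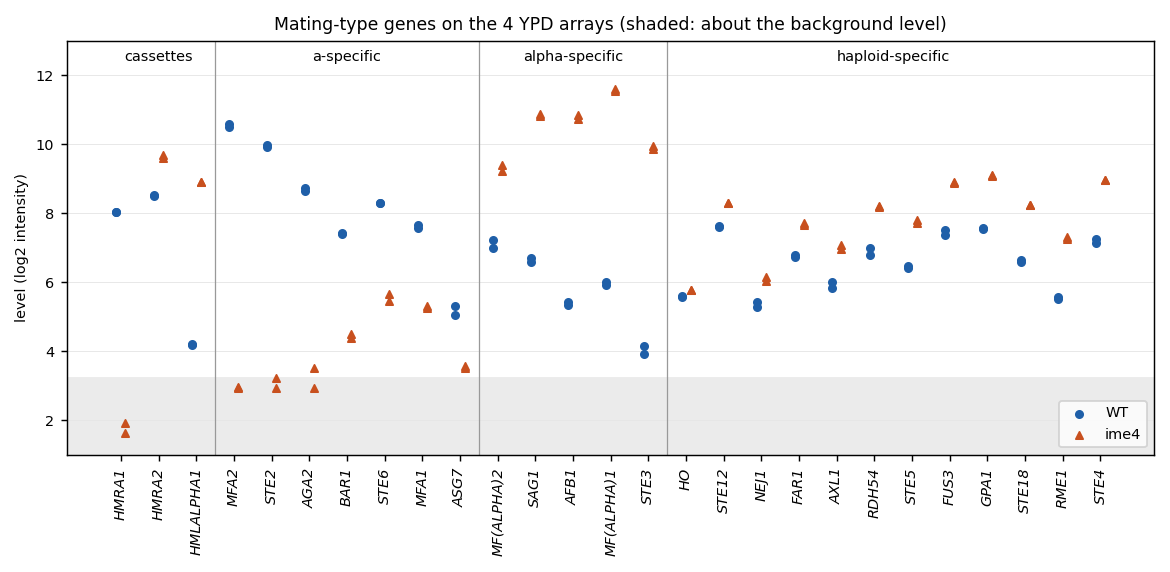
Log2 levels of the cassette genes and of those specific to a, alpha or haploid cells on the 4 YPD arrays, 1 point per array (circles WT, triangles ime4), with the background range shaded. HMRA1 and the 7 a-specific genes are lower in ime4, the 5 alpha-specific genes are higher, and all haploid-specific genes except HO rose.

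Of 12 haploid-specific genes, 11 rose and 1, the mating-type switching endonuclease HO, did not pass (5.60 and 5.56 in WT, 5.78 and 5.77 in ime4, adjusted p = 0.18, and 0.0333 with the 4 YPD arrays alone). Their median difference was 1.30. The beta and gamma subunits of the pheromone-coupled G protein, STE4 and STE18, rose by 1.76 and 1.63, and the alpha subunit GPA1 rose by 1.56. RME1, a repressor of IME1 and so of meiosis, was at 5.57 and 5.52 in WT and at 7.30 and 7.24 in ime4, a rise of 1.72 (adjusted p = 2.44e-07). All 12 genes lay above background on all 4 arrays, and their summed linear intensity was 1312 to 1315 in WT and 3257 to 3271 in ime4. The summed intensity of the a-specific genes was 3564 to 3694 in WT and 139 to 151 in ime4, and that of the alpha-specific genes was 349 to 372 in WT and 8216 to 8322 in ime4. All 7 a-specific genes lay above background on the WT arrays and 4 to 6 of them on the ime4 arrays, and all 5 alpha-specific genes lay above background in both genotypes. The labels give no mating type. Loss of IME4 and the difference in mating-type expression cannot be told apart in any result of this comparison, above or below.

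Genes of the pheromone response and of bud-site selection were mixed. Of 26 pheromone response genes, 11 rose (42.3%) and 6 fell (23.1%), beside 21.3% and 18.7% of all sets, with a median of 0.19. The count that fell was 4 without WT replicate 1 and 3 without ime4 replicate 2. PRM5, a pheromone-regulated membrane protein, was at 4.81 and 4.95 in WT and at 6.94 and 6.89 in ime4 and rose by 2.03. SST2, which turns off the G protein signal, rose by 0.90, and the transcription factor TEC1, which works in filamentous growth, rose by 0.98. The largest difference of the list was a fall, that of FIG1 (-2.69), and PRM6 also fell (-0.99). Both were named after their values were seen. FIG1 lay under background on ime4 replicate 2, so the size of its fall is uncertain. Of 10 bud-site genes, 6 rose (60.0%) and 1 fell (2 without ime4 replicate 1). AXL2, the landmark of axial budding, was at 7.51 and 7.42 in WT and at 8.51 and 8.44 in ime4 (a rise of 1.01, adjusted p = 4.74e-05), RAX2 rose by 0.75 and RAX1 by 0.44. BUD9, a landmark of bipolar budding, fell by 1.41, while BUD8, also of bipolar budding, rose by 0.41. Of the axial genes BUD3 and BUD4, the former rose by 0.68 and the latter differed by -0.19 without passing.

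Outside mating, the largest falls were in genes for the separation of daughter cells from their mothers after division. Of 16 measured genes of this list, 8 fell and 2 rose, with a median of -0.20, and 7 of the 8 falls were past 2-fold. The share of all sets that fell was 18.7%, and 0.914% fell by at least 2-fold. DSE2, a glucanase-like protein secreted by daughter cells, was at 8.26 and 8.39 in WT and at 4.70 on both ime4 arrays, 12.3-fold lower (-3.62, SE 0.0789, adjusted p = 3.19e-09). CTS1, the chitinase that dissolves the septum between mother and daughter, was at 9.31 and 9.27 in WT and at 6.90 and 6.79 in ime4, 5.43-fold lower (adjusted p = 4.09e-09). Both were named for the size of their fall, under a rule that also asked for arrays that do not overlap, as were the other genes below that are called among the largest rises or falls.

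SCW11, a cell wall glucanase, was at 7.54 and 7.67 in WT and at 4.71 and 5.25 in ime4 (-2.62, adjusted p = 2.94e-06). DSE1 was at 6.44 and 6.62 in WT and at 3.58 and 2.94 in ime4, where 1 of the 2 arrays lay above background, so the size of its difference (-3.26) is uncertain. PRY3, a cell wall protein of the daughter, was at 6.43 and 6.54 in WT and at 4.84 and 4.58 in ime4 (-1.77, adjusted p = 0.000107). DSE4, another daughter-specific glucanase, which the naming rule did not pick, fell by 1.26.

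Not all genes of the list moved in this way. EGT2, a wall gene that responds to Swi5, differed by -0.13 (adjusted p = 0.189), and PIR1, NIS1, PCL9 and DSE3 differed by -0.07 to 0.06 without passing. SWI5, a transcription factor of the end of mitosis, was at 7.10 and 6.95 in WT and at 7.31 and 7.45 in ime4, a rise of 0.36 (adjusted p = 0.00344, and 0.0552 with the YPD arrays alone and a replicate block). AMN1, which antagonizes exit from mitosis and daughter separation, rose by 0.52 (adjusted p = 0.000589). In RNA of a whole culture, fewer cells of a type and less RNA per cell cannot be told apart. After 4 h in SPO, DSE2 differed by -2.62, CTS1 by -1.73 and SCW11 by -0.78, so each was also lower in ime4 there, by less (adjusted p of the difference between media 3.75e-05, 3.65e-05 and 5.98e-05). DSE4 differed by 0.30 in SPO.

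**Figure D2:**
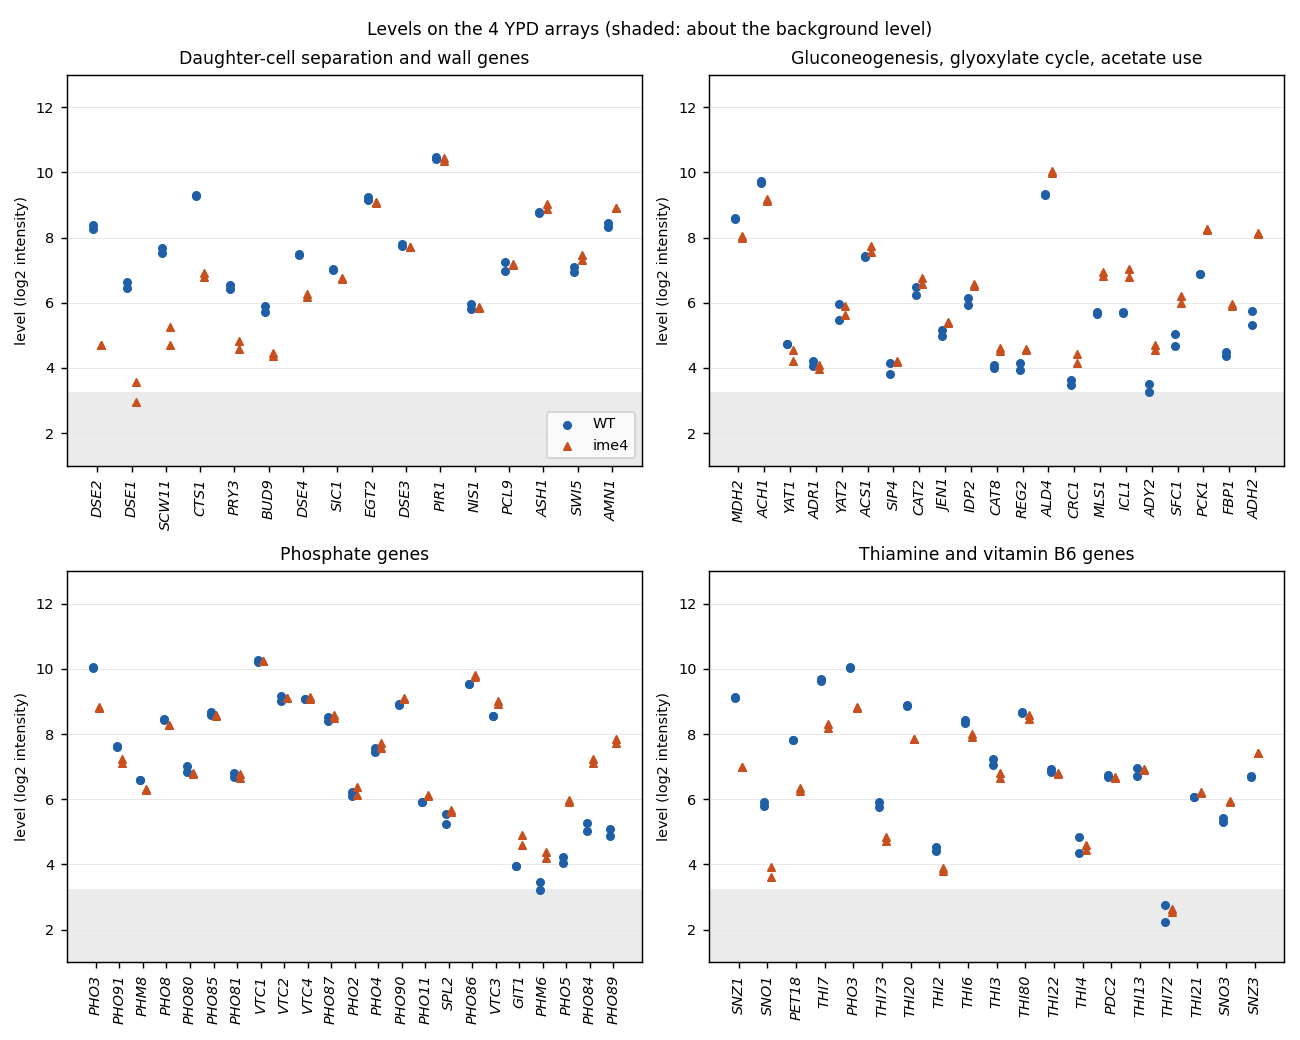
Log2 levels on the 4 YPD arrays of the measured members of the daughter wall, gluconeogenesis and acetate, phosphate, and thiamine and vitamin B6 lists, 1 point per array (circles WT, triangles ime4), ordered by difference, with the background range shaded. The largest falls are DSE2, DSE1, SCW11 and CTS1 in the first panel and SNZ1 and SNO1 in the last, and the largest rises are ADH2 and PHO89.

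Genes that glucose represses, for the use of ethanol, acetate and other non-sugar carbon, were higher in ime4 while the cells were still in rich medium. In a list of 21 measured genes of gluconeogenesis, acetate use and the glyoxylate cycle, 15 rose and 3 fell, with a median of 0.51 against 0.019 over all tested sets. The 15 rises are 71.4% of the list, beside 21.3% of all sets. Without any 1 array the count that rose was 14 or 15. ADH2, the alcohol dehydrogenase that oxidizes ethanol, was at 5.75 and 5.32 in WT and at 8.14 and 8.11 in ime4, 6.01-fold higher (2.59, SE 0.112, adjusted p = 3.27e-07). FBP1, fructose-1,6-bisphosphatase, was at 4.50 and 4.36 in WT and at 5.89 and 5.96 in ime4 (2.81-fold, adjusted p = 3.36e-07).

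PCK1, the carboxykinase that starts gluconeogenesis, was at 6.87 and 6.89 in WT and at 8.23 and 8.25 in ime4 (2.57-fold, adjusted p = 1.51e-07). MLS1, malate synthase of the glyoxylate cycle, was at 5.71 and 5.65 in WT and at 6.93 and 6.83 in ime4 (2.30-fold). More members past 2-fold, named here after their values were seen, were SFC1 (the mitochondrial carrier of succinate and fumarate, 1.26), ADY2 (an acetate transporter, 1.24) and ICL1 (isocitrate lyase, 1.21). CAT8, the activator of gluconeogenic genes, rose by 0.51 (adjusted p = 0.000179), while ADR1, the activator of ADH2, differed by -0.10 (adjusted p = 0.244). The falls were MDH2 (cytosolic malate dehydrogenase, -0.57), ACH1 (an acetyl-CoA hydrolase, -0.55) and YAT1 (a carnitine acetyltransferase, -0.36).

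After 4 h in SPO the same list pointed the other way. All 21 genes were lower in ime4 than in WT there, with a median of -0.65, beside 39.4% of all tested sets called lower in SPO. ADH2 differed by -0.69, FBP1 by -0.79 and PCK1 by -0.37 in SPO, each past the threshold. The difference between the media itself passed the threshold for all 21 members, 20 with a more positive value in YPD and 1 with a more negative value, beside 64.1% of all tested sets.

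Related genes of sugar metabolism did not move as a group. Of 16 hexose transporters, 6 rose (37.5%, beside 21.3% of all sets) and 3 fell (18.8%, beside 18.7%). The count that rose was 3 without WT replicate 2 or ime4 replicate 2. HXT2, a high-affinity transporter, was at 11.00 and 11.12 in WT and at 11.53 and 11.57 in ime4 (0.49), and HXT4 was at 10.23 and 10.16 in WT and at 9.60 and 9.47 in ime4 (-0.66). Of 21 glycolytic and fermentative genes, 3 rose (14.3%) and 4 fell (19.0%). GLK1, a glucokinase that glucose represses, was at 8.84 and 8.85 in WT and at 9.70 and 9.71 in ime4 (a rise of 0.86, adjusted p = 1.97e-06). PDC5, a minor pyruvate decarboxylase, was at 9.10 and 8.89 in WT and at 7.89 and 7.70 in ime4 (-1.20, adjusted p = 3.55e-05), and PDC1, the major one, fell by 0.34. Of 25 genes for peroxisomes and beta-oxidation, 10 rose and 4 fell, beside 21.3% and 18.7% of all sets. The fall count was 1 without either WT array and 2 without either ime4 array. SPS19, an enzyme of unsaturated fatty acid breakdown, rose by 0.68. POX1, the oxidase of the first step, lay at background on all 4 arrays.

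Phosphate genes gave a few strong rises. Of 23 measured genes, 9 rose (39.1%, beside 21.3% of all sets) and 4 fell (17.4%, beside 18.7%), and the rises past 2-fold were 2 transporters and a secreted phosphatase. PHO89, a sodium-coupled phosphate transporter, was at 4.88 and 5.09 in WT and at 7.71 and 7.85 in ime4, 6.95-fold higher (2.80, SE 0.077, adjusted p = 1.5e-08). It was the largest rise outside the mating lists by the naming rule. PHO84, the high-affinity transporter coupled to protons, was at 5.26 and 5.01 in WT and at 7.10 and 7.23 in ime4 (4.08-fold, adjusted p = 3.3e-07). PHO5, the repressible secreted acid phosphatase, was at 4.03 and 4.24 in WT and at 5.98 and 5.90 in ime4 (3.51-fold, adjusted p = 1.02e-06).

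The regulators of the phosphate pathway did not pass: PHO4, its activator, differed by 0.13, PHO2, the partner factor, by 0.10, and PHO81, PHO80 and PHO85, which gate Pho4, by -0.03, -0.14 and -0.06. Among the polyphosphate synthesis genes, VTC3 rose by 0.42 and VTC1, VTC2 and VTC4 differed by 0.00 to 0.01. PHO3, the neighbour of PHO5 and a phosphatase that is active on thiamine phosphates, went the other way, from 10.02 and 10.05 in WT to 8.79 and 8.84 in ime4 (a fall of 1.22, adjusted p = 6.57e-07). In SPO, PHO89 remained higher in ime4 by 0.61, PHO5 differed by -0.12 without passing, and PHO84 was lower by 0.46.

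Genes for thiamine and vitamin B6 were more often lower than higher. Of 19 measured genes, 10 fell and 2 rose, with a median of -0.41. The falls are 52.6% of the list, beside 18.7% of all sets, and the count stayed at 10 without any 1 array. SNZ1, a subunit of pyridoxal phosphate synthase, was at 9.12 and 9.15 in WT and at 6.99 on both ime4 arrays, 4.41-fold lower (adjusted p = 2.35e-08). SNO1, its partner, which is transcribed from the adjacent gene, was at 5.92 and 5.78 in WT and at 3.93 and 3.60 in ime4, 4.25-fold lower (adjusted p = 7.12e-07). The second pair of this family, SNZ3 and SNO3, named after their values were seen and read by probe sets whose names mark shared probes, rose by 0.72 and 0.57.

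THI7, the thiamine transporter, was at 9.70 and 9.63 in WT and at 8.30 and 8.18 in ime4 (2.68-fold lower, adjusted p = 1.37e-07). PET18, which lies on chromosome III, was at 7.81 and 7.82 in WT and at 6.26 and 6.33 in ime4 (2.87-fold lower, adjusted p = 3.05e-08). THI20, a kinase of the pyrimidine moiety of thiamine, THI73 and the activator THI2 also fell, by 1.04, 1.05 and 0.62. Some of the pathway did not follow: THI4, which makes the thiazole moiety, differed by -0.08 (adjusted p = 0.742), THI13, also from shared probes, by 0.08 and THI22 by -0.08. In SPO the list held 7 genes higher and 9 lower, beside 34.1% and 39.4% of all sets. PET18 was higher in ime4 there by 0.42.

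Pyrimidine synthesis was lower at a few steps. Of 17 genes, 5 fell (29.4%, beside 18.7% of all sets) and 1 rose (5.88%, beside 21.3%), with a median of -0.05. The number that rose was 2 without either ime4 array. URA1, dihydroorotate dehydrogenase, was at 11.00 and 11.08 in WT and at 9.38 and 9.42 in ime4, 3.12-fold lower (-1.64, SE 0.0521, adjusted p = 3.92e-08). URA4, the dihydroorotase of the preceding step, was at 9.94 and 9.87 in WT and at 8.94 and 8.92 in ime4 (1.97-fold lower, adjusted p = 4.13e-06). URA10, an orotate phosphoribosyltransferase, fell by 0.55, and URA2, which catalyses the first steps, fell by 0.31. URA3, often used as a strain marker, differed by 0.03 (4.76 and 4.54 in WT, 4.72 and 4.64 in ime4). In SPO the difference of URA1 was -4.11, larger than in YPD by 2.46 (adjusted p = 1.49e-07). Purine genes were mixed, with 5 of 22 higher (22.7%) and 4 lower (18.2%). Without WT replicate 1 the number lower was 2.

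Iron uptake genes were mostly higher. Of 28 measured genes, 17 rose and 2 fell, with a median of 0.29, and 15 or 16 rose without any 1 array. The rises are 60.7% of the list, beside 21.3% of all sets. FRE4, a ferric reductase of the plasma membrane, was at 6.38 and 6.41 in WT and at 7.82 and 7.74 in ime4 (2.61-fold, adjusted p = 2.91e-06). TIS11, which destabilizes messages of iron-using proteins when iron is short, was at 5.68 and 5.38 in WT and at 6.63 and 6.51 in ime4 (2.06-fold), and FRE1, the main ferric reductase, rose by 0.83. The high-affinity pair FET3 and FTR1 rose by 0.36 and 0.46. FET4, the low-affinity transporter, was at 8.82 and 8.73 in WT and at 8.03 and 7.98 in ime4 and fell by 0.77. In SPO the list turned, with 3 genes higher and 21 lower, beside 34.1% and 39.4% of all sets. FRE4 remained higher in ime4 there by 1.14.

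Amino acid pathways moved in pieces rather than whole. Of 28 genes for sulfate assimilation and methionine, 14 rose and 2 fell, with a median of 0.19. Of all sets 21.3% rose and 18.7% fell. MET17, the sulfhydrylase that fixes sulfide, was at 8.65 and 8.70 in WT and at 9.46 and 9.43 in ime4 (a rise of 0.77), and STR3 rose by 0.73. Of 17 arginine and lysine genes, 8 rose (47.1%) and 4 fell (23.5%). LYS9, which acts near the end of lysine synthesis, was at 9.74 and 9.73 in WT and at 10.72 and 10.71 in ime4 (1.98-fold), LYS20 rose by 0.91 and ARG4 by 0.75, while CAR2, an enzyme of arginine breakdown, fell by 0.64. ARO10, which decarboxylates the keto acids of aromatic amino acids, was at 6.31 and 6.20 in WT and at 7.30 and 7.16 in ime4 (1.97-fold), while ARO1 and ARO7, of aromatic synthesis, fell by 0.60 and 0.75. BAT2, the cytosolic branched-chain aminotransferase, rose by 0.85 and ILV6 fell by 0.60.

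Genes under nitrogen catabolite control gave no more calls than the table as a whole. Of 29 genes, 2 rose (6.90%, 4 genes without WT replicate 1) and 5 fell (17.2%), beside 21.3% and 18.7% of all sets. GAT1, an activator of the system, was at 6.73 and 6.87 in WT and at 5.66 and 5.39 in ime4, 2.42-fold lower (adjusted p = 6.7e-06). GAP1, the general amino acid permease, fell by 0.72, and MEP2, an ammonium permease, fell by 0.75. PUT1, proline oxidase, was at 7.69 and 7.57 in WT and at 8.66 and 8.61 in ime4 (2.0-fold higher). Of 13 genes often used as strain markers, 3 rose (MET17, ARG4 and ADE1) and 2 fell (LEU2 by 0.24 and HIS4 by 0.25). URA3, HIS3, LYS2, LYS5, ADE2, CAN1, RPL28 and GAL3 did not pass, and all 13 lay above background on all 4 arrays.

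**Figure D3:**
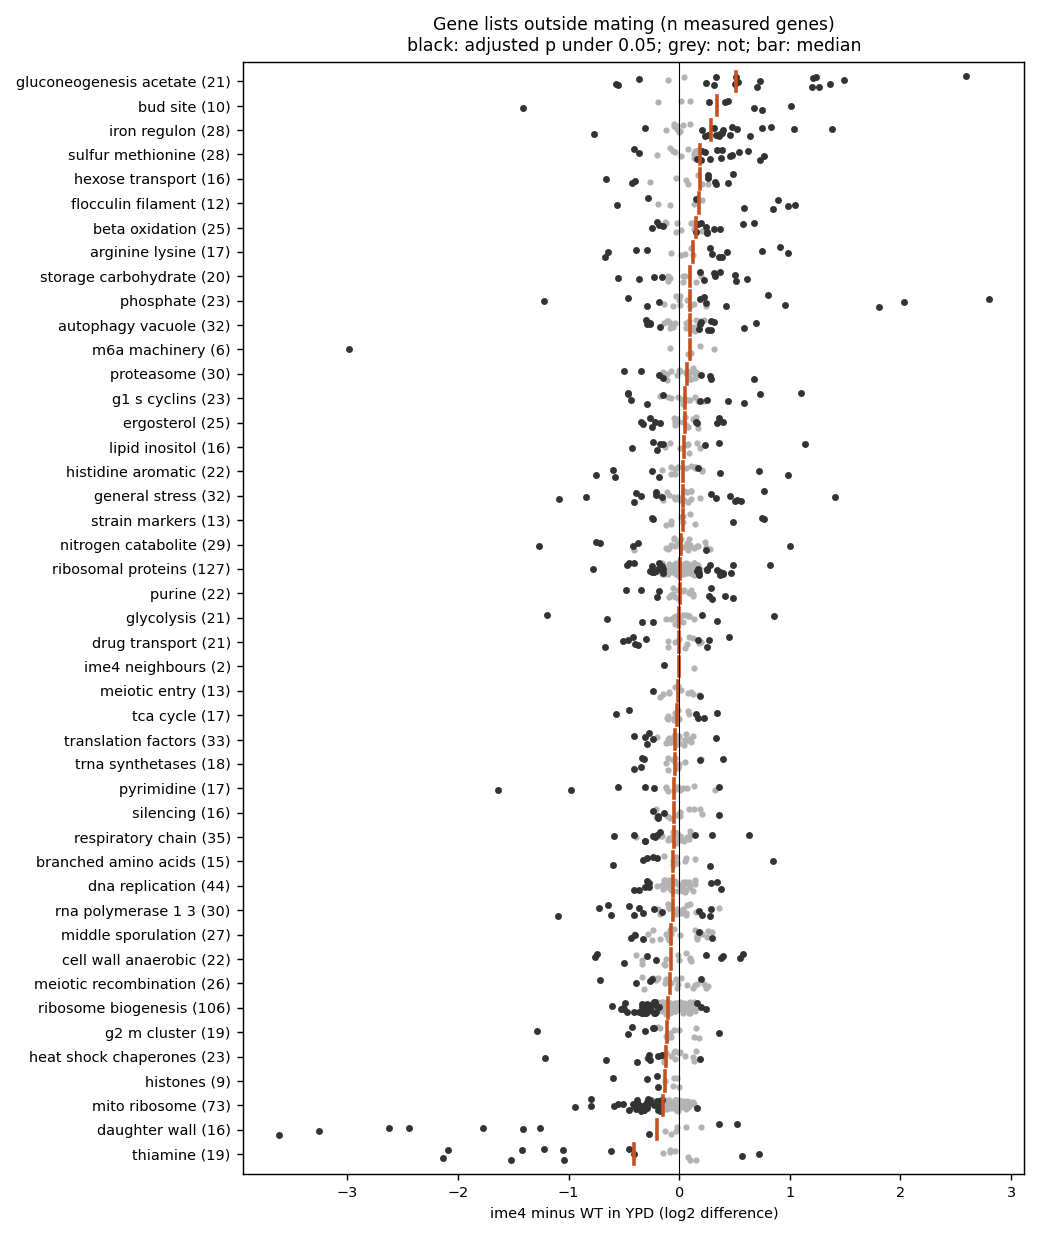
Log2 difference (ime4 minus WT in YPD) of every measured gene of the lists outside mating, 1 row per list with its number of measured genes, ordered by median (vertical bar). Black points passed the threshold and grey points did not. The median runs from -0.41 for thiamine and vitamin B6 to 0.51 for gluconeogenesis and acetate use, and most lists lie close to 0.

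The translation machinery moved by small amounts. Of 127 ribosomal protein genes, 15 rose and 15 fell, with a median of 0.01, both shares (11.8%) under those of the whole table. The number that rose was 8 without WT replicate 1 or ime4 replicate 1, and the number that fell was 8 without WT replicate 1 and 9 without ime4 replicate 1. RPS14B, a protein of the small subunit, fell by the most of the 4 ribosomal proteins named by smallest p, from 11.96 and 11.87 in WT to 11.12 and 11.14 in ime4 (-0.78). Of 106 ribosome biogenesis genes, 35 fell and 3 rose, with a median of -0.10, and 33.0% of them fell beside 18.7% of all sets. The number that fell was 23 without ime4 replicate 2, and the number that rose was 1 without any 1 array. UTP8, a factor for the small subunit and for tRNA export, was at 8.46 and 8.43 in WT and at 7.87 and 7.81 in ime4, a fall of 0.61. In SPO, 104 of these genes and 123 of the ribosomal protein genes were higher in ime4, beside 34.1% of all sets.

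Subunits of RNA polymerases I and III and their factors gave 4 rises (13.3%) and 10 falls (33.3%) among 30 genes, beside 21.3% and 18.7% of all sets. The number that fell was 6 without ime4 replicate 2. RPA12, a subunit of RNA polymerase I, was at 9.66 and 9.71 in WT and at 8.54 and 8.64 in ime4, 2.14-fold lower (adjusted p = 3.95e-06). RPC19, a subunit that both enzymes share, fell by 0.64.

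Mitochondrial ribosomal proteins gave more falls than rises. Of 73 genes, 31 fell and 1 rose, with a median of -0.15, and the 31 falls are 42.5% of the list, beside 18.7% of all sets. Without any 1 array 23 to 28 of them fell and 0 rose. MRP20 was at 8.21 and 8.17 in WT and at 7.21 and 7.29 in ime4 (-0.94, adjusted p = 2.55e-06), and MRPL4, RSM7 and MRP49 fell by 0.80, 0.59 and 0.55. Of 35 genes of the respiratory chain and ATP synthase, 8 fell (22.9%) and 3 rose (8.57%, beside 21.3% of all sets). ATP14 and ATP5, subunits of ATP synthase, were lower by 0.59 and 0.41. The succinate dehydrogenase subunits SDH1 and SDH3 fell by 0.57 and 0.45. In SPO, 58 of the mitochondrial ribosomal genes were lower in ime4 and 7 higher, beside 39.4% and 34.1% of all sets.

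Stress genes did not move as a block. Of 32 general stress genes, 8 rose and 8 fell. The counts of this list, of the chaperones and of glycogen and trehalose stand beside 21.3% of all sets that rose and 18.7% that fell. DDR2, a stress gene of unknown biochemical role, was at 8.13 and 8.10 in WT and at 9.57 and 9.48 in ime4 (2.65-fold higher, adjusted p = 7.19e-08). SPI1, a cell wall protein related to Sed1, was at 8.55 and 8.60 in WT and at 7.43 and 7.55 in ime4 (2.12-fold lower), and HSP12, a small membrane-associated heat shock protein, fell by 0.84. Of 23 heat shock and chaperone genes, 8 fell (34.8%) and 1 rose (4.35%). The number that fell was 4 without ime4 replicate 2, and 0 rose without any 1 array. BTN2, which gathers misfolded proteins, was at 11.17 and 10.93 in WT and at 9.88 and 9.80 in ime4 (2.32-fold lower), and the mitochondrial chaperone HSP78 fell by 0.66. Of 20 genes for glycogen and trehalose, 8 rose (40.0%) and 4 fell (20.0%). The number that fell was 2 without WT replicate 1 or ime4 replicate 2. GPH1, glycogen phosphorylase, fell by 0.55 and GLG1, the primer of glycogen synthesis, rose by 0.50.

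Genes of the cell cycle and of the cell surface gave isolated large differences. CLB1, a mitotic cyclin, was at 7.39 and 7.54 in WT and at 6.22 and 6.13 in ime4, 2.44-fold lower (adjusted p = 6.57e-07), while CLB2, its close relative, fell by 0.31. Of the 19 genes of the G2/M cluster, 6 fell (31.6%, beside 18.7% of all sets) and 1, SWI5, rose (5.26%, beside 21.3%). PCL1, a G1 cyclin of the Pho85 kinase, was at 4.26 and 4.11 in WT and at 5.29 on both ime4 arrays (2.15-fold higher), and GIN4, a bud-neck kinase, rose by 0.73. Of 9 histone genes, 4 fell (44.4%) and none rose, with HTZ1, the variant H2A.Z, lower by 0.60. The number that fell was 2 without ime4 replicate 1. Replication genes gave 3 rises (6.82%) and 6 falls (13.6%) among 44.

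FLO10, a flocculin, was at 8.53 and 8.55 in WT and at 9.61 and 9.57 in ime4 (2.07-fold higher, adjusted p = 6.8e-06). Of 12 genes for flocculation and filamentous growth, 6 rose and 2 fell, beside 21.3% and 18.7% of all sets. MSB2, a mucin upstream of the filamentous growth pathway, rose by 0.89 and PGU1, a pectinase, by 0.85. The falls, named after their values were seen, were FLO9 (-0.56) and MIT1 (-0.28). The cold- and anaerobiosis-induced wall genes TIR3 and TIR4 fell by 0.74 and 0.76, while CWP2 of the same list rose by 0.58. Of the 22 measured genes of that list, 5 rose and 5 fell (22.7% each), beside 21.3% and 18.7% of all sets. INO1, inositol phosphate synthase, was at 5.19 and 5.08 in WT and at 6.29 and 6.25 in ime4 (2.20-fold higher, adjusted p = 8.27e-07), and OPI1, the repressor of INO1, rose by 0.36. SIR2 and SIR3, which silence the HML and HMR cassettes, fell by 0.24 and 0.19, and the call on SIR2 was lost without WT replicate 1 (adjusted p = 0.146) or ime4 replicate 1 (0.15), that on SIR3 without WT replicate 2 (0.052).

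Further lists held mostly small differences, and their counts stand beside the 21.3% of all sets that rose and the 18.7% that fell. Of 33 translation factors, 1 rose and 5 fell (2 without WT replicate 2, 3 without either ime4 array), with CAM1 lower by 0.41 and TIF34 higher by 0.33. Of 18 tRNA synthetases, 2 rose (1 without WT replicate 1 or ime4 replicate 1) and 4 fell, with DPS1, for aspartate, lower by 0.41. Of 25 ergosterol genes, 5 rose (3 without either WT array or ime4 replicate 1) and 6 fell. ERG3 rose by 0.40 and ERG13, of the mevalonate pathway, by 0.36, while ERG6 fell by 0.33. Of 30 proteasome genes, 4 rose and 4 fell (2 without WT replicate 1 or either ime4 array), with SCL1 higher by 0.68 and PRE1 lower by 0.50, both subunits of the core particle. Of 32 genes for autophagy and the vacuole, 9 rose (5 without ime4 replicate 2) and 5 fell (3 without WT replicate 1 or ime4 replicate 2), with ATG9, a membrane protein of autophagy, higher by 0.69. Of 21 drug transport genes, 4 rose (2 without WT replicate 2 or ime4 replicate 1) and 7 fell, with PDR12, the exporter of weak acids, lower by 0.67.

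The remaining genes among the 15 largest rises and 15 largest falls include several of unknown function. YAR068W was at 10.12 and 10.01 in WT and at 11.74 and 11.62 in ime4 (3.06-fold), and its neighbour on chromosome I, YAR066W, was at 5.94 and 6.36 in WT and at 8.56 and 8.32 in ime4 (4.88-fold), from a probe set whose name marks shared probes. ICS2 was at 3.15 and 3.34 in WT, where 1 of the 2 arrays lay above background, and at 5.50 and 5.26 in ime4. YLR031W was at 3.77 and 3.64 in WT and at 5.73 and 5.49 in ime4 (3.75-fold).

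CHA1, the serine and threonine deaminase next to HML on chromosome III, was at 6.70 and 6.75 in WT and at 8.36 and 8.32 in ime4 (3.05-fold, adjusted p = 1.08e-06). HPF1, a cell wall mannoprotein, was at 10.33 and 10.39 in WT and at 9.06 and 9.04 in ime4 (2.48-fold lower). PIR3, another covalently bound wall protein, was at 6.68 and 6.58 in WT and at 5.28 and 5.17 in ime4 (2.64-fold lower). YEL073C was at 7.58 and 7.47 in WT and at 6.31 and 6.08 in ime4 (2.52-fold lower). More sets carry the ending for shared probes. YGR109W-A fell from 5.47 and 5.43 in WT to 3.39 and 3.29 in ime4, YFL065C rose from 4.01 and 4.14 to 5.42 and 5.29, and YDR316W-B rose from 7.92 and 8.97 to 9.87 and 9.70, with the WT arrays far apart (difference 1.34, SE 0.257, adjusted p = 0.00307).

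Among the genes at least 2-fold apart, 10 pairs were neighbours on a chromosome, and 7 of the pairs moved the same way. These included SNO1 with SNZ1, PRY1 (-1.15) with PRY3, YLR030W (1.17) with YLR031W, YIL014C-A (-1.22) with BAR1, and YLR285C-A (-1.10) with CTS1. The pairs that moved in opposite directions were PHO3 with PHO5, HMRA2 with HMRA1, and UIP4 (-1.02) with MF(ALPHA)1. Signals of overlapping genes on opposite strands cannot be told apart where the strand of the probes is not stated.

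Chromosome III, which carries MAT, HML and HMR, was higher in ime4 as a whole. The median difference of its 148 tested probe sets was 0.158, and 0.158 again over the 142 sets outside the mating lists, while the medians of the other 15 chromosomes lay between -0.025 and 0.038. Each of the 4 ways to pair an ime4 array with a WT array gave a median for chromosome III between 0.117 and 0.162. On the same chromosome, WT replicate 1 differed from replicate 2 by a median of 0.003 and ime4 replicate 1 from replicate 2 by -0.018, so the shift was larger than that between replicates of a genotype.

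On chromosome III, 57 sets (38.5%) were called higher and 19 (12.8%) lower, where the other chromosomes had 16.4% to 25.3% higher and 14.7% to 24.6% lower. A positive difference was found for 72.3% of its sets, and for 47.1% to 59.5% on the others. Both arms were shifted, with a median of 0.137 over the 57 sets of the left arm and 0.159 over the 91 of the right arm. In SPO the median of chromosome III was 0.176 and the other chromosomes lay between -0.106 and 0.025. The shift had the same sign in both media, over separate arrays. The genes named above that lie on chromosome III include CHA1, GLK1, PET18, ILV6, LEU2, HIS4 and KAR4, and their differences stand beside this median. The part of this shift in any other result was not tested.

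**Figure D4:**
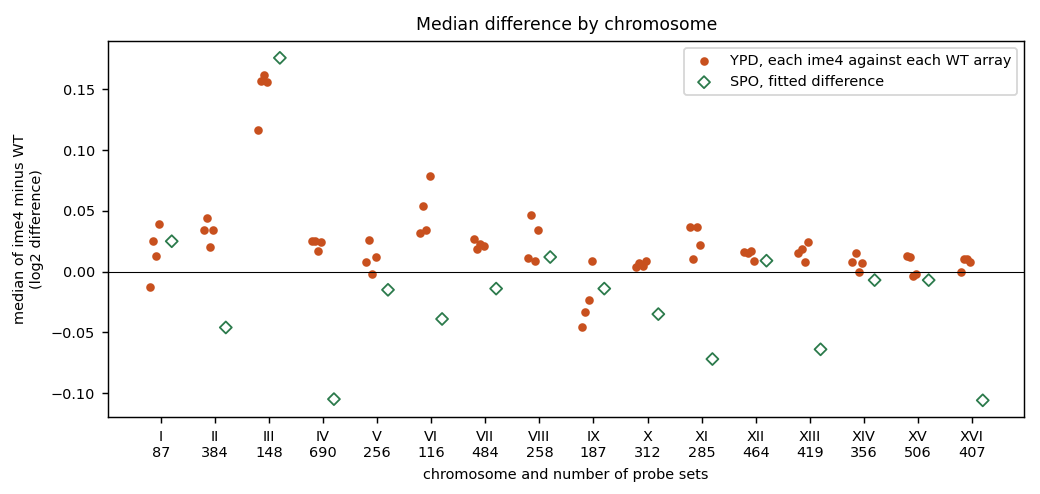
Median log2 difference (ime4 minus WT) of the tested probe sets of each chromosome, with the number of sets under its name. The 4 points per chromosome pair each ime4 array with each WT array in YPD, and the diamond is the fitted difference in SPO. Chromosome III lies at 0.117 to 0.162 in YPD and at 0.176 in SPO, apart from all others.

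Most of the large differences outside mating were not of the same size after 4 h in SPO. Of the 36 sets at least 2-fold higher in YPD outside the mating lists, 21 were also called higher in SPO, 12 were called lower and 3 did not pass. Of the 39 sets at least 2-fold lower, IME4 left out, 24 were also called lower in SPO, 8 were called higher and 7 did not pass. These counts stand beside the 34.1% of all tested sets called higher in SPO and the 39.4% called lower. The median of the first set went from 1.23 in YPD to 0.35 in SPO and that of the second from -1.26 to -0.40. These sets were chosen by their size in YPD, and no test was made of the change in their medians. In the mating lists together with IME4, all 16 sets at least 2-fold higher and all 10 at least 2-fold lower were called in the same direction in SPO.

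Of the 30 largest differences outside mating, 26 differed between the media past the threshold, beside 64.1% of all sets. They were chosen by their size in YPD, which is part of the value tested, so smaller differences in SPO follow in part from the choice, and the count is a description. Those that did not were YAR068W (1.61 in YPD, 1.63 in SPO), YDR316W-B (1.34, 1.46), FRE4 (1.38, 1.14) and YGR109W-A (-2.11, -2.28). Of the 30, 5 were called in the opposite direction in SPO, namely ADH2, PHO84, FBP1 and PCK1 among the rises and PET18 among the falls. URA1 was the only one of the 26 with a larger difference in SPO than in YPD.

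**Figure D5:**
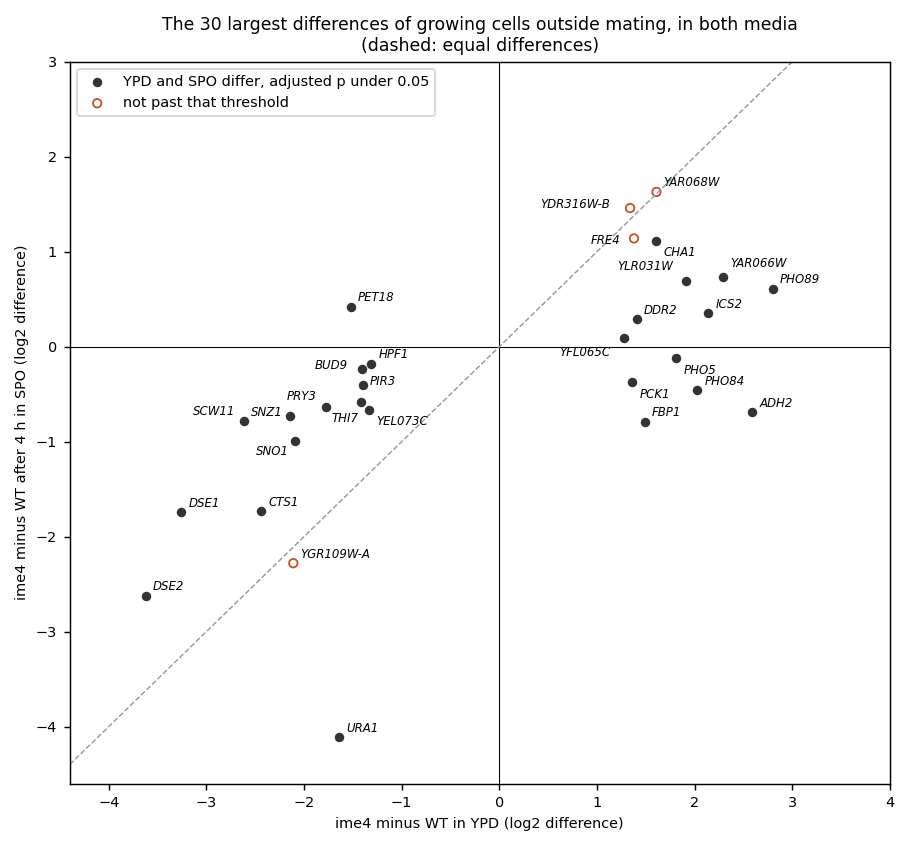
Log2 difference (ime4 minus WT) in YPD against that after 4 h in SPO for the 15 largest rises and 15 largest falls of growing cells outside mating, with the line of equal differences dashed. Filled points differed between the media past the threshold. Most lie closer to 0 in SPO than in YPD, ADH2, FBP1, PHO84, PCK1 and PET18 turned sign past the threshold, and URA1 reaches -4.11 in SPO.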

How the data were processed

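RNA of 9 cultures was measured on Affymetrix arrays, from 600 ng of total RNA per the labels' protocols. The deposited values are intensity on a linear scale, 1 per probe set, and the submitters' processing notes name RMA, whose software and settings are not given in the sources used here. Precision is limited by the number of arrays, 2 per genotype in YPD. The p-values measure the spread between arrays of the same group, estimated from all 9 arrays of both media and partly shared across genes. The labels give no number of clones, so spread between independent ime4 clones is not known.

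The log2 of each deposited intensity was taken with no offset. Gene names came from the platform annotation joined to the R64 gene table, which updated 12 symbols, and 126 tested sets carry an ending for shared probes. The 2904 sets with no name and the 1413 of the other species were left out of the tests. The 4 group means were fitted to all 9 arrays by lmFit and eBayes of limma 3.58.1 (R 4.3.3), with 5 residual and 4.07 prior degrees of freedom and a median SE of 0.0642 for ime4 minus WT in YPD. All tests were two-sided, and p-values were adjusted by Benjamini-Hochberg over the 5359 sets at 0.05. The procedure was tested on simulated data. A gene at or under background on both arrays of the lower group has its fold computed against the background level, written "at least". Of several sets of a gene the one with the highest mean was used. A difference between media is the YPD difference minus the SPO difference in the same fit.

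The members and the 50 gene lists were chosen with earlier results of these data known, so counts over a list are descriptions beside those of the whole table, with no set test. Genes that do not adjoin IME4 (CTT1, which fell by 0.41, and MPT5, which rose by 0.35) had been entered in the list of its neighbours and were taken out after their values were seen. Named genes were IME4, all measured members of the small mating, methylation, meiotic entry and marker lists, the 15 largest rises and 15 largest falls outside mating (called, arrays not overlapping, above background in the higher group), and the 4 members of smallest p of each other list. The replicate numbers do not pair the samples: deviations from the group means correlated at 0.0028 across genotypes. The planned search for promoter motifs was not run, since no promoter sequences were used here.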

Additional observations from a re-analysis of the deposited data

Results flagged for a closer look

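The results below are differences between media, that is the YPD difference minus the SPO difference on the log2 scale, for the 30 largest differences outside mating. Of these, 26 passed the adjusted threshold of 0.05 in limma, beside 64.1% of all 5359 sets, and no cause was tested. The genes were chosen by their size in YPD, which is part of each value, so the values are a description. The media share no array.

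Among the genes that rose in YPD, the value was 3.28 for ADH2, 2.28 for FBP1 and 1.73 for PCK1, which serve growth on ethanol and other non-sugar carbon. It was 2.49 for PHO84, 2.19 for PHO89 and 1.93 for PHO5, of phosphate uptake. For ICS2 it was 1.78, for YAR066W 1.55, for YLR031W 1.21, for YFL065C 1.20, for DDR2 1.11 and for CHA1 0.50.

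Among the genes that fell in YPD, a negative value marks a fall that was deeper there. In the daughter wall genes it was -1.85 for SCW11, -1.52 for DSE1, -1.18 for BUD9, -1.13 for PRY3, -1.0 for DSE2 and -0.71 for CTS1. In the thiamine and vitamin B6 genes it was -1.93 for PET18, -1.41 for SNZ1, -1.09 for SNO1 and -0.84 for THI7. HPF1 had -1.13, PIR3 -1.0 and YEL073C -0.66. URA1 had 2.46, with the deeper fall in SPO.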

How the results depend on the processing

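No result reversed its direction under the 12 alternatives. The total of 2144 called sets, the 101 sets at least 2-fold and the 26 differences between media stayed within 1.5 times, except where the dimmest 25% of probe sets were left out. Then 56 sets were at least 2-fold apart, 21 of them lower, and 13 of the differences between media passed, since only 15 of the 30 genes remained in the fit. The median of chromosome III was 0.136 with each array centred on its median and 0.134 with an offset of 16, moves larger than the SD between the 4 array pairs. Quantile normalization gave 980 sets higher and 1006 lower, and centring gave 991 and 1110, so the surplus of higher calls depends on the scaling. Without 1 array, the total was 1580 to 1715.

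With the replicate number as a block (replicate block), 1027 sets were higher and 914 lower. The 4 YPD arrays alone with the block, an alternative chosen after seeing the data, gave 802 and 715. Of the 236 named genes, 210 were called and 189 of these under every alternative that held them. Of the 30 largest differences outside mating, 29 were, the other being YDR316W-B (adjusted p = 0.051 with the YPD arrays alone and the block). In the meiosis lists, calls were lost without 1 array for CST9 (adjusted p = 0.0514), MSH5, REC104, SPO21, SPR3, SPS4 and CDA1 (0.0518 to 0.237), the last at background throughout. Signals near background, at a log2 of about 3.2, limit the size of the falls of DSE1, STE2 and AGA2.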
